A study of Homo sapiens with 4 samples.

Results

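The RNA polymerase I, II and III subunits are the genes of the enzymes that copy nuclear DNA into RNA, and they were followed here in wild-type and TXNDC9 knockout HepG2 cells. The set held 32 genes of the 57979 in the deposited table, chosen by gene symbol, and all 32 were found. It was made up of 6 subunits of Pol I alone, 2 shared by Pol I and Pol III, 5 shared by all of the nuclear enzymes, 7 of Pol II alone, 9 of Pol III alone, the Pol I initiation factors RRN3 and UBTF, and POLRMT, the mitochondrial RNA polymerase. TWISTNB, CD3EAP and ZNRD1 are the symbols used in the table for the genes now named POLR1F, POLR1G and POLR1H.

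HepG2 is a cell line derived from a human liver tumour, and the study used it as a hepatocellular carcinoma line. Polyadenylated RNA was sequenced from wild-type HepG2 cells (2 libraries) and from HepG2 cells in which TXNDC9, a thioredoxin domain protein, had been targeted with CRISPR-Cas9 (2 libraries). Both groups were grown in DMEM with fetal bovine serum, and no other treatment was given in the labels. The guide RNAs were aimed at the first exon of TXNDC9 and carried by the lentiCRISPRv2 plasmid, and the study's protein blot used infected HepG2 cells sorted by FACS, with the vector alone as control. Whether the sequenced cells were those sorted cells, or a clone, and whether the wild-type libraries came from cells with the vector, is not given in the sources used here.

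Pol I makes the large ribosomal RNA precursor in the nucleolus, Pol II makes mRNAs and many noncoding RNAs, and Pol III makes tRNAs, 5S ribosomal RNA and other short RNAs. Each enzyme has a pair of large subunits that form the active centre, a set of small subunits that is common to all of them, and subunits of its own that bind initiation factors or act in cleavage and termination. Rapidly dividing cells, tumour cells included, need a high output of ribosomal RNA and tRNA, which is why Pol I and Pol III are studied in cancer.

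The levels are FPKM values (sequenced fragments counted per gene and divided by transcript length and library size), which allow genes of different length to be compared. The sums of FPKM over all genes were 805816 and 971102 in the wild-type libraries and 535973 and 568279 in the knockout libraries, and the number of reads behind a value is unknown. TXNDC9 itself measured 35.1 and 37.3 FPKM in wild-type cells against 21.9 and 27.6 FPKM in knockout cells, a log2 fold change of -0.55 (SE 0.14, limma adjusted p = 0.0145) that was below the 2-fold limit, and 0.12 after each library was rescaled to the same sum. The gene overlaps EIF5B on the other strand, and an mRNA level does not show whether the coding sequence was disrupted. The HepG2 label was not borne out by hepatocyte markers: of ALB, AFP, TTR, APOA1, APOB, SERPINA1, TF, FGB and HNF4A, 0 of 9 had a mean above 1 FPKM, the highest value was 0.449 FPKM, 1 was listed at 0 in all libraries, and the summed level was 0.446 and 0.733 FPKM in wild-type cells against 0.0479 and 0.174 FPKM in knockout cells. The keratins KRT8 and KRT18 of simple epithelia were high and moved with the genotype, with sums of 7084 and 9153 FPKM in wild-type libraries and 2335 and 2394 FPKM in knockout libraries. Of 4 endothelial markers 1 had a mean above 1 FPKM, CDH5, which was called higher in knockout cells (log2 fold change 1.92, adjusted p = 0.00195), and the 4 summed to 0.803 and 1.22 FPKM against 4.41 and 3.42 FPKM. Of 5 fibroblast markers 3 had a mean above 1 FPKM, and they summed to 34.7 and 25.6 FPKM against 25.0 and 21.3 FPKM, mostly from COL1A1, while PDGFRB was called higher (1.55, adjusted p = 0.00392). The 5 immune markers, mostly CD68, summed to 3.90 and 6.10 FPKM against 6.35 and 7.44 FPKM. The part of these markers in the results was not tested.

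To show what lies in front of these genes, the stretch before the RefSeq start (GRCh38.p14, up to 150 bases, bases in annotated exons left out) is given for 6 of them. They were chosen as the genes of the largest chains of Pol II and Pol III, and CD3EAP for its E-box. A shared, a Pol III and a mitochondrial gene that were lower in knockout cells were added. POLR1A, POLR2H and POLR2F were also sought and left out, since fewer than 100 bases in a row lay outside annotated exons. Capitals mark matches, on either strand, to the E-box letters CACGTG, the ETS letters CGGAAG, the NRF1 letters GCGCATGC, the GC box letters GGGCGG or the TATA box letters TATAAA, and all read 5′ to 3′ on the gene's strand. The stretches end at the base before the start, except that of POLR3A, which ends 7 bases earlier.
POLR2A (chr17:7484264-7484365, plus strand): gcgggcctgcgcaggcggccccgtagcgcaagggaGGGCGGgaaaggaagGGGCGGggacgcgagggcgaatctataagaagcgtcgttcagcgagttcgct
POLR2L (chr11:842530-842679, minus strand): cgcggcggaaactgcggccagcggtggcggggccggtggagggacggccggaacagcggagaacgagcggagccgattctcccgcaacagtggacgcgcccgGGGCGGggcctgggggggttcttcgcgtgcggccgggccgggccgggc
POLR3A (chr10:78029523-78029665, minus strand): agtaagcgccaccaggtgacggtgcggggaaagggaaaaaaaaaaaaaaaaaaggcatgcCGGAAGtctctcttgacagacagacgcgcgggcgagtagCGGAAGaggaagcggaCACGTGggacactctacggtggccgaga
POLR3K (chr16:53609-53758, minus strand): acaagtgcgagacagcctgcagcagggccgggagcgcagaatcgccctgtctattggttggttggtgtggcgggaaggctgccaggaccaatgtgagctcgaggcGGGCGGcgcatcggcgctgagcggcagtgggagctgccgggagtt
CD3EAP (chr19:45406494-45406643, plus strand): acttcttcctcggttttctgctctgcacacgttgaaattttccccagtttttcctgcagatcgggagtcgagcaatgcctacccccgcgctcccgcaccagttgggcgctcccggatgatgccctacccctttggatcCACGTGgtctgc
POLRMT (chr19:633538-633687, minus strand): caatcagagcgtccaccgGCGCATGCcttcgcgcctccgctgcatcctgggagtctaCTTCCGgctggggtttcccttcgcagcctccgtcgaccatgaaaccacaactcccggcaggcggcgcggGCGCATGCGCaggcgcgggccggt

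Of the 32 genes, 25 had a promoter window in the RefSeq table, which spans 250 bases upstream and 50 bases downstream of the start, and POLR1E, POLR2K, POLR2G, POLR2I, POLR2J, POLR3D and POLR3G had none. The E-box letters, bound by basic helix-loop-helix factors, were in 4 of 25 (16%), those of CD3EAP, POLR3A, POLR3C and POLR3E, against 8.77% of 27305 genes. In CD3EAP they began 12 bases before the start and in POLR3A 35 bases before it. The ETS letters were in 13 of 25 (52%, against 22.6% of all genes), the NRF1 letters in 4 (POLR2F, POLR2H, POLR3B and POLRMT, 16% against 3.68%), the GC box in 16 (64% against 48.3%) and TATAAA in 0 (against 14.0%). In POLRMT the NRF1 letters and their reverse complement overlapped 24 and 22 bases before the start. These are matches of letters only, and a gene was counted when any of its listed starts held them.

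Upon TXNDC9 knockout, 9 of the 32 mRNAs were called lower (28.1%) and 1 was called higher (3.13%), where 15.3% and 14.2% of the 13246 genes tested were called lower and higher. A call needed a limma adjusted p under 0.01 (Benjamini-Hochberg over all genes tested) and a change of at least 2-fold. The lower genes were POLR1D, POLR2F, POLR2H, POLR2L, POLR2I, POLR2J, POLR3GL, POLR3K and POLRMT, and the higher gene was POLR1A. In bulk RNA, a lower level per cell and fewer cells with the mRNA cannot be told apart.

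The values of the groups did not overlap for any of the 32. In 23 genes the 2 knockout values were both under the lower wild-type value (71.9%, against 45.9% of all genes tested) and in 9 both were over the higher one (28.1%, against 40.1%). Without regard to fold, 13 passed an adjusted p of 0.01 as lower (40.6%, against 27.1%) and 6 as higher (18.8%, against 23.7%). The median log2 fold change was -0.40 over the 32 genes and -0.088 over all genes tested. Rescaling each library to the same sum moved the median of all genes by 0.67, to 0.59, and that of the 32 genes to 0.28, so the direction of the median turned while its distance from all genes stayed at -0.31. On that scale 2 of the 32 were called lower (POLR2I and POLRMT) and 7 higher (POLR1A, POLR1B, TWISTNB, POLR2B, POLR3A, POLR3B and RRN3). Over all 13246 genes tested on that scale, 447 were called lower and 4380 higher. Without wild-type replicate 2 the median was -0.30 (-0.043 over all genes), and POLR2L (-0.96), POLR3GL (-0.86) and POLR3K (-0.96) were short of 2-fold. Without knockout replicate 1 it was -0.43 (-0.061 over all genes), and without knockout replicate 2 it was -0.46 (-0.11 over all genes). The calls of the 32 did not hold when either knockout library was left out. Such a fit leaves 1 library in a group, so its calls are not read as a result on these genes. The labels do not say that the libraries came from separate cultures, so the p-values measure the spread between these libraries, and an exact permutation test of 2 against 2 could not go below 0.333.

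**Figure D1:**
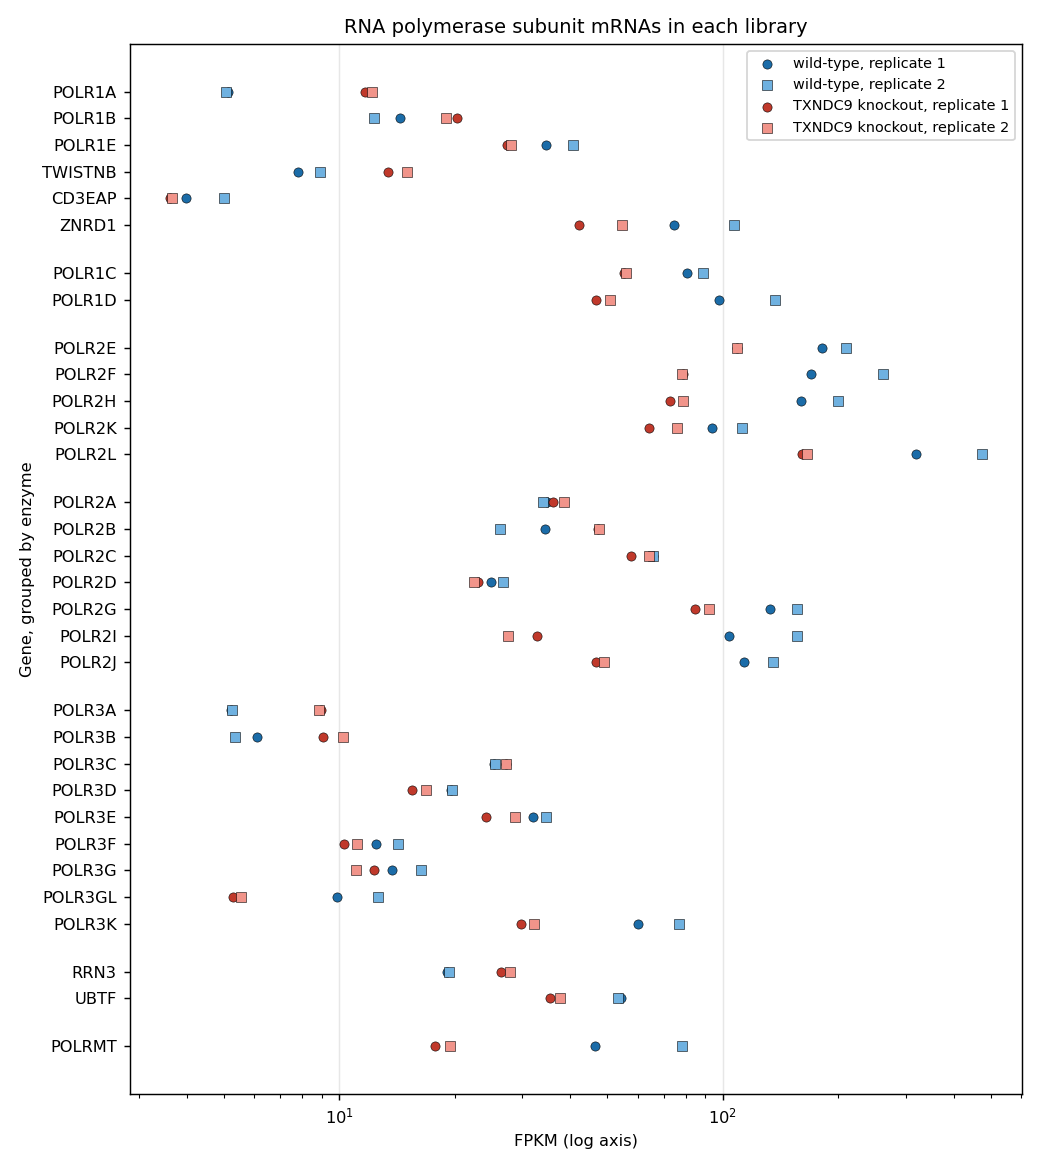
FPKM of each of the 32 genes (log axis) in the 2 wild-type (blue) and 2 knockout (red) libraries, grouped by enzyme. Both red points lie left of both blue points for 23 genes, POLR2I among them, and right of them for 9, POLR1A among them.

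The subunits of Pol I alone did not move in a single direction. POLR1A, the largest subunit, which carries the active centre, measured 5.13 and 5.06 FPKM in wild-type cells against 11.7 and 12.2 FPKM in knockout cells. Its knockout mean was 2.34 times the wild-type mean, with a log2 fold change of 1.21 (SE 0.11, adjusted p = 0.000601), and it was the only gene of the 32 called higher. POLR1A lies on chromosome 2 from 86020216 to 86106155 on the minus strand (hg38) and overlaps no annotated gene. POLR1B, its partner in the active centre, measured 14.4 and 12.3 FPKM in wild-type cells against 20.3 and 19.0 FPKM in knockout cells. The difference of 0.56 (SE 0.12, adjusted p = 0.00793) passed the p but not the fold, and it was -0.30 after correction for transcript length and GC content. TWISTNB, the stalk subunit that contacts RRN3, measured 7.79 and 8.91 FPKM against 13.4 and 15.02 FPKM, also above in both knockout libraries (0.76, SE 0.12, adjusted p = 0.00302). After the same correction TWISTNB was at 0.14 (adjusted p = 0.294).

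The smaller Pol I subunits had lower values in knockout cells as deposited, with POLR1E and CD3EAP higher once rescaled, and none was called. ZNRD1, which takes part in RNA cleavage, measured 74.8 and 107 FPKM in wild-type cells against 42.1 and 54.5 FPKM in knockout cells (log2 fold change -0.90, SE 0.21, adjusted p = 0.0118). The wild-type values differed from each other by 0.52 on the log2 scale. POLR1E and CD3EAP form a dimer on the enzyme. POLR1E measured 34.6 and 40.8 FPKM against 27.3 and 28.0 FPKM (-0.44, adjusted p = 0.0183), and CD3EAP 3.99 and 5.01 FPKM against 3.62 and 3.67 FPKM (-0.29, adjusted p = 0.164). With each library rescaled to the same sum, POLR1E and CD3EAP were at 0.24 and 0.38, and ZNRD1 was at -0.22. After correction for length and GC content ZNRD1 was at -0.11 (limma adjusted p = 0.518), POLR1E at -0.072 and CD3EAP at -0.013.

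RRN3 and UBTF, which bring Pol I to the ribosomal DNA promoter, moved apart on the values as deposited. RRN3, the factor that links the enzyme to the promoter complex, measured 19.1 and 19.3 FPKM in wild-type cells against 26.5 and 27.8 FPKM in knockout cells (0.50, SE 0.10, adjusted p = 0.00566). UBTF, the HMG-box protein that coats ribosomal genes, measured 54.2 and 53.4 FPKM against 35.3 and 37.7 FPKM (-0.56, SE 0.10, adjusted p = 0.00408). Both passed the p and not the 2-fold limit. When rescaled, both were above 0, with RRN3 at 1.17 and UBTF at 0.12. After correction for length and GC content RRN3 was at 0.055 (adjusted p = 0.55) and UBTF at -0.63 (adjusted p = 0.00207). RRN3 has near-identical copies elsewhere in the genome and overlaps PDXDC1, so its reads may be split.

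The subunits shared between enzymes had lower values in both knockout libraries as deposited, with POLR1C and POLR2K above 0 once rescaled. POLR1C and POLR1D form the dimer on which Pol I and Pol III assemble. POLR1D measured 97.8 and 137 FPKM in wild-type cells against 46.6 and 50.7 FPKM in knockout cells, and fell by 1.25 on the log2 scale (SE 0.18, adjusted p = 0.00187). POLR1C measured 80.5 and 88.9 FPKM against 55.3 and 55.8 FPKM (-0.61, SE 0.11, adjusted p = 0.00395), short of 2-fold, and 0.074 when rescaled. It overlaps 6 annotated genes, XPO5 and YIPF3 among them, and whether reads were counted by strand is not given in the sources used here.

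Of the 5 subunits common to Pol I, Pol II and Pol III, 3 were called lower and all 5 had both knockout values below both wild-type values as deposited (4 of 5 were below 0 when rescaled). POLR2L, a small zinc-binding subunit of the assembly core and the highest of the 32 mRNAs, measured 318 and 473 FPKM in wild-type cells against 161 and 166 FPKM in knockout cells, and fell by 1.25 (SE 0.21, adjusted p = 0.00314). POLR2F measured 170 and 262 FPKM against 78.6 and 78.3 FPKM and fell by 1.43 (SE 0.21, adjusted p = 0.00223). POLR2H measured 160 and 199 FPKM against 72.6 and 78.8 FPKM and fell by 1.24 (SE 0.14, adjusted p = 0.00102). In each of the 3, the wild-type libraries were further apart than the knockout libraries. The falls of these 3 genes were all larger than 2-fold as deposited, and rescaling left -0.57 for POLR2L, -0.75 for POLR2F and -0.56 for POLR2H. Correction for length and GC content left -0.22 for POLR2L (limma adjusted p = 0.119), -0.83 for POLR2F (0.0107) and -0.41 for POLR2H (0.00898). POLR2E, which lies in the jaw that grips the incoming DNA, measured 181 and 210 FPKM against 109 and 109 FPKM (-0.84, adjusted p = 0.0021), and POLR2K, another zinc-binding core subunit, measured 93.8 and 112 FPKM against 64.3 and 75.7 FPKM (-0.56, adjusted p = 0.0163), with 0.12 for POLR2K when rescaled. The median of the 5 was -1.24, and -0.40 after correction for length and GC content. POLR2F overlaps SOX10 and C22orf23, POLR2L overlaps CD151, and POLR2H overlaps no annotated gene.

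**Figure D2:**
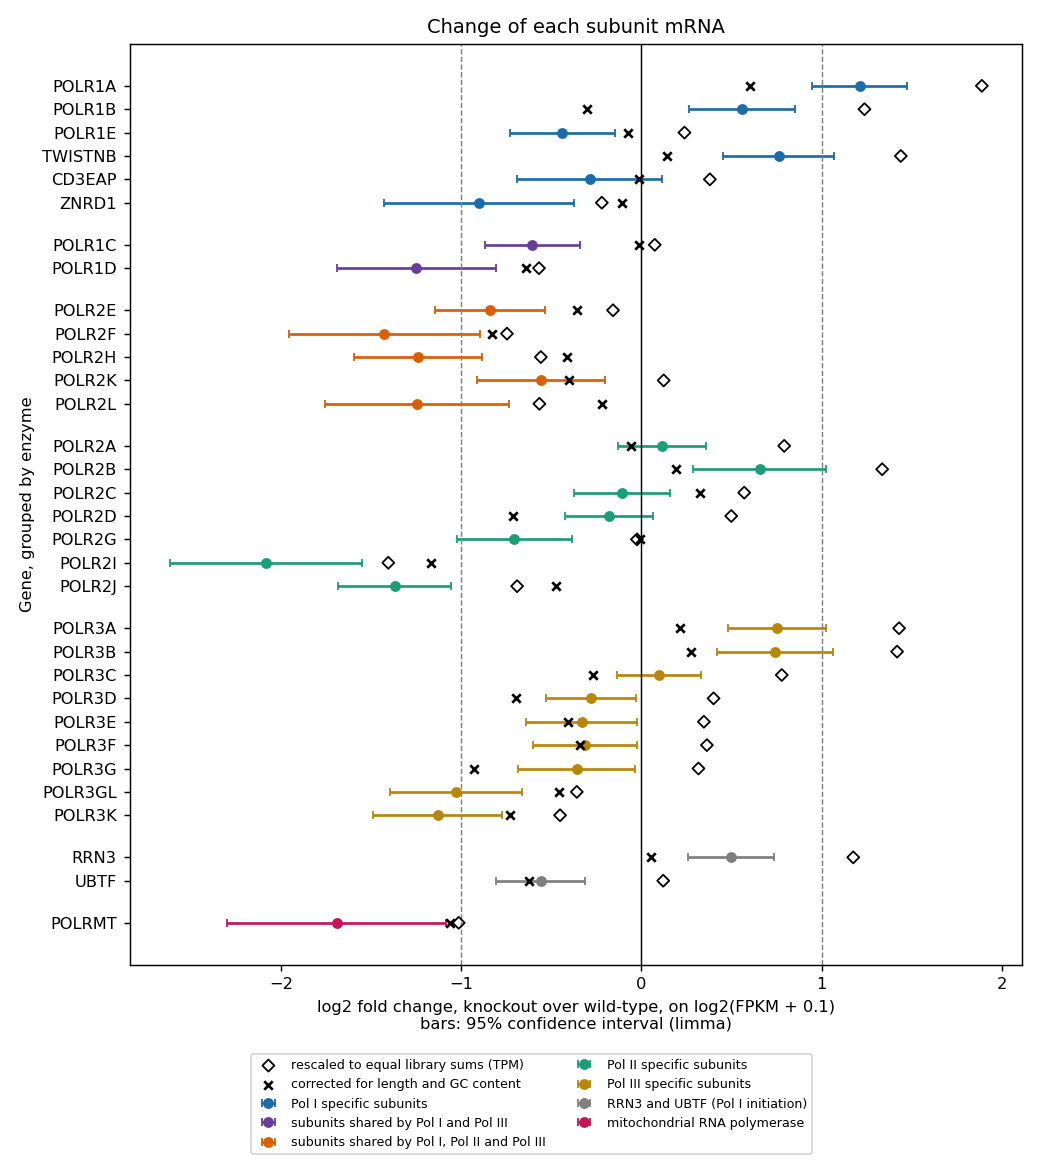
log2 fold change of each gene, knockout over wild-type, with its 95% confidence interval from limma (coloured), after rescaling each library to the same sum (open diamonds) and after correction for transcript length and GC content (crosses). The 5 subunits shared by Pol I, Pol II and Pol III all lie left of 0 as deposited and corrected, while POLR2K lies at 0.12 when rescaled, and POLR1A lies right of 0 on all scales.

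Of the 7 subunits of Pol II alone, POLR2I and POLR2J were called lower and none higher, and the median log2 fold change was -0.18 (0.50 when rescaled). POLR2A, the catalytic subunit with the heptad-repeat tail, measured 34.9 and 34.0 FPKM in wild-type cells against 36.1 and 38.4 FPKM in knockout cells. The difference of 0.11 (95% confidence interval -0.13 to 0.36, adjusted p = 0.346) did not pass the test. POLR2B, the second largest subunit, measured 34.4 and 26.2 FPKM against 47.2 and 47.5 FPKM (0.66, SE 0.15, adjusted p = 0.0102). After correction for length and GC content POLR2B was at 0.19 (adjusted p = 0.311).

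POLR2I had the largest change of the 32 on the values as deposited, while POLR1A had the largest when the libraries were rescaled (1.89). This small subunit, which takes part in transcript proofreading, measured 104 and 156 FPKM in wild-type cells against 32.7 and 27.5 FPKM in knockout cells. The wild-type mean was 4.32 times the knockout mean, and the mRNA fell by 2.08 on the log2 scale (SE 0.21, adjusted p = 0.000774). The fall was 1.40 when rescaled (-1.40, adjusted p = 0.000362) and remained past 2-fold after correction for length and GC content (-1.17, adjusted p = 0.00234). POLR2I lies on chromosome 19 from 36113709 to 36115213 on the minus strand, has the shortest transcript of the set (443 nt), and overlaps TBCB and OVOL3 on the other strand. Among the 7 subunits of Pol II alone it ranked 2 by mean FPKM in wild-type and 6 in knockout cells.

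POLR2J, the partner of POLR2C in the assembly dimer of Pol II, measured 113 and 135 FPKM in wild-type cells against 46.8 and 49.0 FPKM in knockout cells, and fell by 1.37 (SE 0.13, adjusted p = 0.000627). It was not called when rescaled (-0.69) or after correction for length and GC content (-0.48). It has close copies in POLR2J2 and POLR2J3, so its reads may be split. POLR2C itself measured 65.8 and 65.8 FPKM against 57.7 and 64.3 FPKM (-0.11, 95% confidence interval -0.38 to 0.16, adjusted p = 0.396). The stalk subunits POLR2D and POLR2G are a pair on the enzyme. POLR2G measured 133 and 156 FPKM against 84.5 and 91.9 FPKM (-0.71, adjusted p = 0.00451), and POLR2D 24.9 and 26.7 FPKM against 23.0 and 22.5 FPKM (-0.18, adjusted p = 0.154). On the rescaled values POLR2C and POLR2D turned to 0.57 and 0.50, and POLR2G was at -0.025 (limma adjusted p = 0.812). After correction for length and GC content POLR2C was at 0.33 (adjusted p = 0.0251) and POLR2D at -0.71 (adjusted p = 0.00249). The corrected value of POLR2G was -0.0073 (limma adjusted p = 0.931).

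Of the 9 subunits of Pol III alone, POLR3GL and POLR3K were called lower and none higher, and the median was -0.31 (0.36 when rescaled). POLR3A and POLR3B form the active centre. POLR3A measured 5.23 and 5.25 FPKM in wild-type cells against 8.95 and 8.84 FPKM in knockout cells (0.75, SE 0.11, adjusted p = 0.00201). POLR3B measured 6.09 and 5.34 FPKM against 9.05 and 10.2 FPKM (0.74, SE 0.13, adjusted p = 0.00396). Both passed the p and not the fold, and both were called higher when the libraries were rescaled (1.43 and 1.42). After correction for length and GC content POLR3A was at 0.21 (adjusted p = 0.126) and POLR3B at 0.28 (adjusted p = 0.101). POLR3K, the RNA cleavage and termination subunit, measured 60.1 and 76.6 FPKM against 29.8 and 32.2 FPKM and fell by 1.13 (SE 0.14, adjusted p = 0.00135). It lies near the end of chromosome 16, from 46407 to 53608 on the minus strand.

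POLR3G and POLR3GL are alternative versions of the same position in the enzyme, and POLR3G is known for its expression in embryonic and tumour cells. POLR3GL measured 9.88 and 12.6 FPKM in wild-type cells against 5.29 and 5.54 FPKM in knockout cells, and fell by 1.03 (SE 0.15, adjusted p = 0.00197). POLR3G measured 13.7 and 16.4 FPKM against 12.3 and 11.1 FPKM (-0.36, adjusted p = 0.0504). The ratio of POLR3G to POLR3GL was 1.39 and 1.30 in wild-type and 2.32 and 1.997 in knockout libraries. After correction for length and GC content the direction of this difference turned, with POLR3G at -0.93 (adjusted p = 0.0026) and POLR3GL at -0.46 (adjusted p = 0.0143). POLR3GL was the called gene closest to the fold limit, and it was no longer called with a pseudocount of 1.

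POLR3C, POLR3F and POLR3G or POLR3GL form the initiation subcomplex, and POLR3D and POLR3E a pair that helps in initiation and termination. POLR3C measured 25.3 and 25.5 FPKM in wild-type cells against 27.2 and 27.2 FPKM in knockout cells (0.10, 95% confidence interval -0.13 to 0.33, adjusted p = 0.381). POLR3F measured 12.5 and 14.2 FPKM against 10.3 and 11.1 FPKM (-0.31, adjusted p = 0.0562). POLR3D measured 19.5 and 19.7 FPKM against 15.5 and 16.8 FPKM (-0.28, adjusted p = 0.0507), and POLR3E 31.9 and 34.6 FPKM against 24.2 and 28.8 FPKM (-0.33, adjusted p = 0.0557). None of these 4 was called, and POLR3D, POLR3E and POLR3F were above 0 when rescaled (0.40, 0.35 and 0.36). After correction for length and GC content all 4 were below 0. POLR3C was at -0.27 (adjusted p = 0.0293), POLR3D at -0.69 (adjusted p = 0.00226), POLR3E at -0.41 (adjusted p = 0.019) and POLR3F at -0.34 (adjusted p = 0.0239).

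POLRMT, a single-subunit enzyme related to phage polymerases that transcribes mitochondrial DNA, measured 46.5 and 78.4 FPKM in wild-type cells against 17.8 and 19.5 FPKM in knockout cells. It fell by 1.69 on the log2 scale (SE 0.25, adjusted p = 0.00202), the second largest fall of the set, with the wild-type libraries 0.75 apart on the log2 scale. POLRMT lies on chromosome 19 from 617221 to 633537 on the minus strand and overlaps no annotated gene. Its product could not be followed in these data, since all 37 mitochondrially encoded genes in the table were listed at 0 in every library.

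Ratios of FPKM within a library do not depend on how that library is scaled, though they can move with transcript length, and they were compared with no test. POLR2L over POLR2A was 9.13 and 13.9 in wild-type and 4.46 and 4.32 in knockout libraries. POLR2I over POLR2A was 2.97 and 4.60 against 0.905 and 0.715. POLR3K over POLR3A was 11.5 and 14.6 against 3.33 and 3.64. ZNRD1 over POLR1A was 14.6 and 21.1 against 3.61 and 4.47. Each of these 4 ratios, of a short transcript to a long one, was lower in both knockout libraries. The log2 change of POLR2L over POLR2A was -1.36, and -0.16 after correction for length and GC content. It went from -2.20 to -1.11 for POLR2I over POLR2A, from -1.88 to -0.94 for POLR3K over POLR3A and from -2.11 to -0.71 for ZNRD1 over POLR1A. Between the large chains, POLR1B over POLR1A was 2.80 and 2.43 against 1.74 and 1.56, and POLR2B over POLR2A was 0.986 and 0.771 against 1.31 and 1.24. POLR3B over POLR3A overlapped between the groups, with 1.17 and 1.02 against 1.01 and 1.15. Across the enzymes, POLR2A over POLR1A was 6.80 and 6.73 against 3.10 and 3.15, and POLR2A over POLR3A 6.67 and 6.48 against 4.04 and 4.34.

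**Figure D3:**
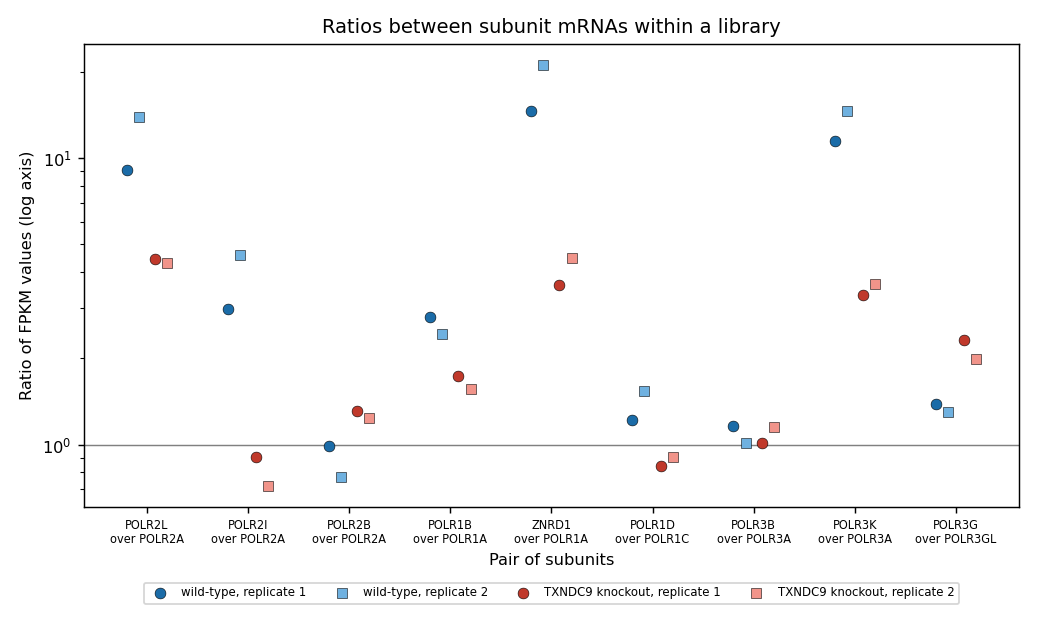
Ratios of FPKM between pairs of subunits (log axis) in each wild-type (blue) and knockout (red) library. The groups are apart in 8 of the 9 pairs and overlap for POLR3B over POLR3A, which stays between 1.01 and 1.17.

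The log2 fold changes of the 32 genes varied with transcript length. All 13 genes with a canonical transcript of up to 2000 nt had values below 0, with 7 called lower and a median log2 fold change of -1.03. The 11 genes of 2000 to 4000 nt had a median of -0.31 with 2 called lower, and the 8 longer genes a median of 0.34 with 1 called higher. All genes tested showed the same order in the same length classes, with medians of -0.72, -0.12 and 0.61. In the shortest class 31.0% of all genes were called lower, and in the longest 30.6% were called higher. Over the 32 genes Spearman's rho between the log2 fold change and length was 0.76, and with GC content it was -0.56, while over 13112 genes these were 0.49 and -0.46. These are correlations across genes measured in the same 4 libraries, and genes are not independent replicates. Length, level and change were bound together, since rho was -0.67 between wild-type level and length and -0.78 between change and wild-type level.

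The wild-type libraries also differed from each other with length. The difference of wild-type replicate 2 minus replicate 1, on the log2 scale, had a rho of -0.73 with length over the 32 genes, and the same difference between the knockout libraries had a rho of -0.20. When each library was corrected for length and GC content, rho with length was 0.26 and the median of the 32 genes was -0.32 against -0.0084 over all genes. In that fit limma called POLR2I lower (-1.17) and no other member, with 874 lower and 882 higher calls over all genes. At an unadjusted limma p under 0.05 were 20 of the 32, a share like that of all genes (8051 of 13112). POLRMT was at -1.06 (adjusted p = 0.0139), POLR2F at -0.83 (adjusted p = 0.0107) and POLR1A at 0.60 (adjusted p = 0.00509). The part of length and GC content in the changes could not be told apart from that of the genotype.

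**Figure D4:**
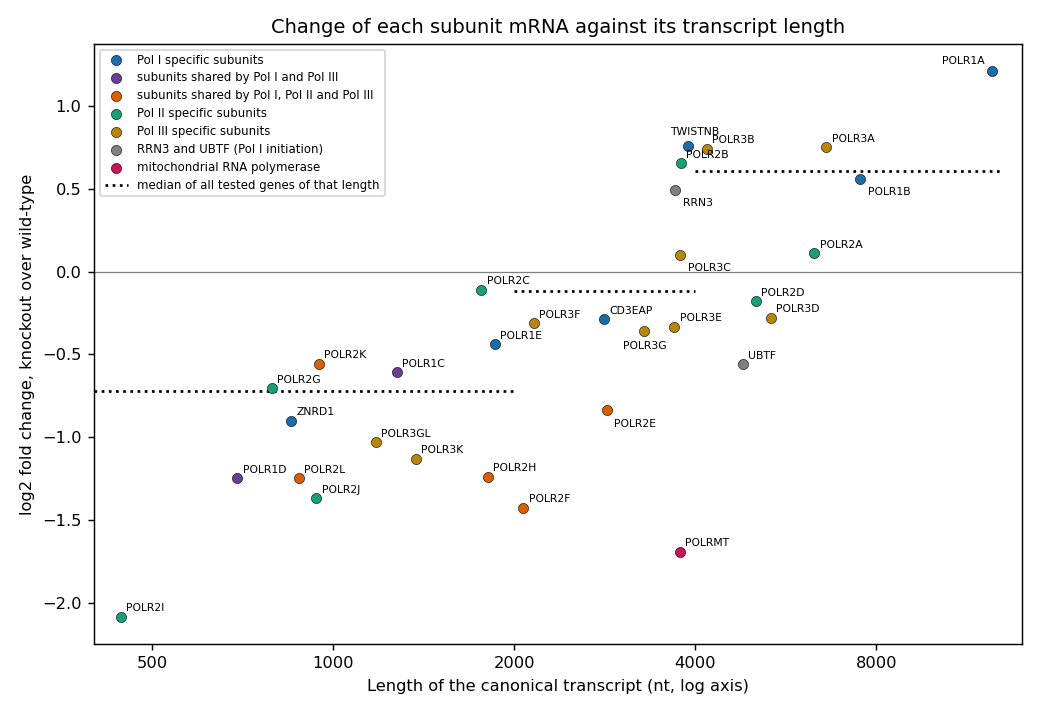
log2 fold change of each gene, as deposited, against the length of its canonical transcript (log axis), coloured by enzyme, with the median of all genes tested in each length class (dotted lines). All 13 genes of up to 2000 nt lie below 0, where the median of all genes is -0.72, and POLR1A, the longest, lies highest, though rescaling the libraries lifts the median of all genes by 0.67.

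The proteins that work with the polymerases were examined in 7 lists, 90 genes in all, which were all tested. Of the 90, 13 were called lower and 10 higher, where 15.3% and 14.2% of all genes were. After correction for length and GC content, 5 of these 23 calls remained (TAF10, GTF3C1, RPAP1, AFF4 and TEFM), and 5 other genes, TTF1, GTF2H5, TAF8, RPAP2 and GPN2, named after their values were seen, were called lower. When rescaled, 1 of the 90 was called lower and 24 higher, where 447 and 4380 of the 13246 genes tested were. The largest share of lower calls was among 14 assembly and import factors, which build the enzymes in the cytoplasm and carry them into the nucleus, with 5 called lower, none higher and a median of -0.66 (0.016 when rescaled, -0.46 when corrected for length and GC content). ZNHIT2 measured 57.1 and 71.2 FPKM in wild-type cells against 20.7 and 19.8 FPKM in knockout cells (-1.65, adjusted p = 0.000542), and its corrected value was -0.45. UXT (-1.37), RUVBL2 (-1.22) and PIH1D1 (-1.20), members of the chaperone complex around HSP90, were also called lower, as was RPAP1 (-1.18), which is named after its value was seen. The corrected values were -0.58 for UXT, -0.30 for RUVBL2, -0.32 for PIH1D1 and -1.03 for RPAP1. In 13 of the 14 both knockout values lay below both wild-type values, where this held for 45.9% of all genes.

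Among 17 Pol III transcription factors, 4 were called lower and 1 higher, where 15.3% and 14.2% of all genes were. Their median was -0.56 (0.11 when rescaled, -0.13 when corrected). GTF3C6 (-1.47) and GTF3C1 (-1.45) belong to TFIIIC, which binds the internal promoters of tRNA genes, GTF3A (-1.15) is the 5S gene factor, and SNAPC2 (-1.21) serves snRNA genes. BDP1, a TFIIIB subunit named after its value was seen, rose by 1.09. After correction GTF3C6 was at -0.997, GTF3C1 at -1.68, GTF3A at -0.67, SNAPC2 at -0.13 and BDP1 at -0.060 (adjusted p = 0.702 for BDP1). The 7 Pol I promoter and termination factors had a median of -0.18 (0.50 when rescaled, 0.14 when corrected), and limma called 0 of them, with 1 lower and 1 higher at an adjusted p under 0.01 without the fold limit.

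The Pol II factors held calls in both directions, as did all genes tested, of which 15.3% were called lower and 14.2% higher. Of 13 TFIID subunits, 2 were called lower and 2 higher, close to the shares of all genes, with a median of 0.027 (0.70 when rescaled, -0.050 when corrected). TAF10 measured 124 and 190 FPKM in wild-type cells against 29.0 and 36.4 FPKM in knockout cells (-2.24, adjusted p = 0.000765), and TAF12 was at -1.04. TAF2 (1.53) and TAF1 (1.04), the largest TFIID subunits, rose. After correction TAF10 was at -2.54, TAF12 at -0.62, TAF2 at 0.81 and TAF1 at 0.25, and only TAF10 of these 4 was called. Of 18 general transcription factors, GTF2A1 (1.38) and GTF2H3 (1.24) were called higher and none lower, with a median of -0.29 (0.38 when rescaled, 0.067 when corrected) and corrected values of 0.38 for GTF2A1 and 0.83 for GTF2H3. Of 16 elongation factors, 3 were called higher and 2 lower, also close to the shares of all genes. Their median was -0.37 (0.31 when rescaled, -0.32 when corrected). AFF4, the scaffold of the super elongation complex, rose from 4.58 and 4.09 FPKM to 20.2 and 21.5 FPKM (2.24, adjusted p = 0.000486), and the cyclins CCNT2 (1.74) and CCNT1 (1.42) of P-TEFb rose with it. NELFE (-1.16) and NELFB (-1.11, named after its value was seen), subunits of the pausing factor NELF, fell. After correction AFF4 was at 1.22 and still called, while CCNT2 (0.73), CCNT1 (0.52), NELFE (-0.37) and NELFB (-0.35) were not.

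Of 5 mitochondrial transcription factors, TFAM and TEFM were called higher and none lower, where 14.2% and 15.3% of all genes were. TFAM, which packages mitochondrial DNA and opens its promoters, measured 19.9 and 17.6 FPKM in wild-type cells against 42.7 and 45.8 FPKM in knockout cells (1.24, adjusted p = 0.00061). TEFM, the elongation factor of POLRMT, was at 1.09. Their corrected values were 0.40 and 1.35. TFB2M (0.33), MTERF1 (0.20) and TFB1M (-0.48) were not called, and the median of the 5 was 0.33 (1.01 when rescaled, 0.40 when corrected).

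**Figure D5:**
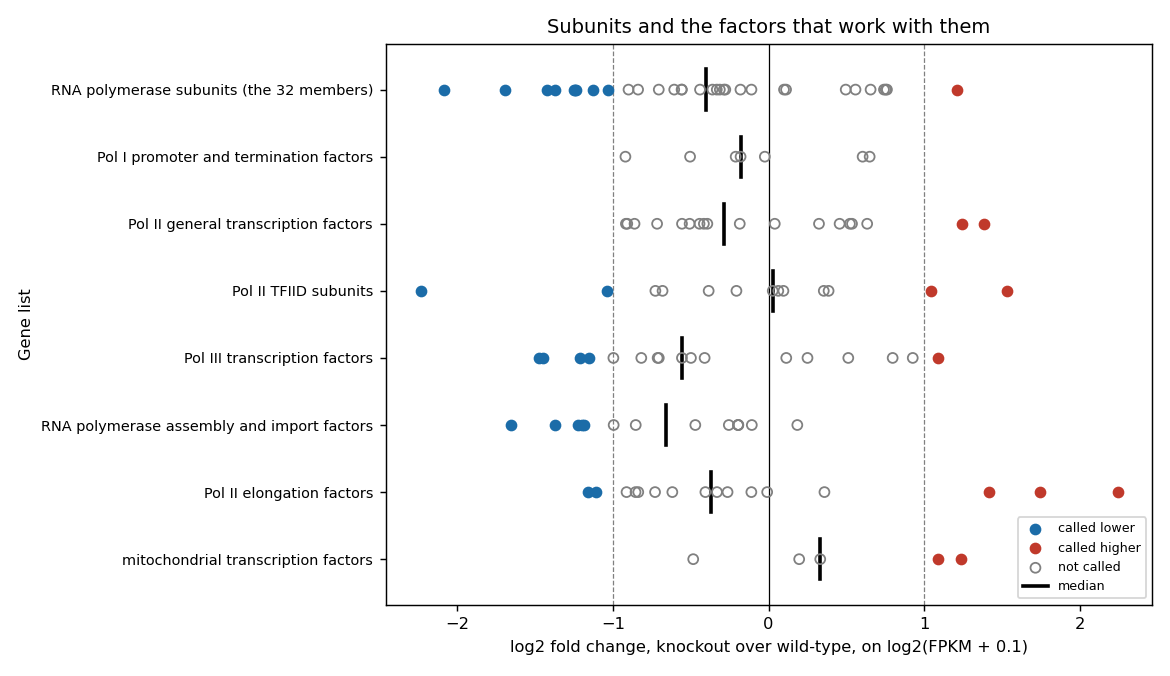
log2 fold change, as deposited, of the 32 genes and of the 7 lists of factors, with called genes filled and the median of each list as a bar. The assembly factors have 5 lower calls and a median of -0.66, which moves to 0.016 when each library is rescaled to the same sum, and the elongation factors reach from -1.16 to 2.24.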

How the data were processed

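The series held 4 libraries of polyadenylated HepG2 RNA, 2 per genotype. Per the submitters' processing notes, TopHat2, Cufflinks, Cuffdiff and hg38 were used, while tool versions, the scaling between libraries and whether counting used strand are not given in the sources used here. The authors deposited FPKM values per gene and library. They also deposited averages, fold changes and p-values, which were not used. The table held 231916 lines, of which 57979 had values. Identifiers stood out of register with the symbols and were put back in order, after which 61.4% matched GENCODE release 44 names, all 32 members included. The members and lists were chosen with earlier results of these data known.

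The fit used log2(FPKM + 0.1), which understates changes of low genes, over the 13246 genes whose average exceeded 1 FPKM, with limma 3.58.1 (R 4.3.3), a variance trend and Benjamini-Hochberg adjustment. Calls needed an adjusted p under 0.01 together with at least a 2-fold change. Every member is named, and of each list up to 4 called genes with the largest change. Canonical transcript length and GC content, known for 99.0% of the genes, were corrected by loess (span 0.3). Same-numbered replicates had deviations correlated at -0.090, so the numbers were not taken to pair the samples. 1 list of further polymerase subunits is not reported here. limma was tested on simulated data. No reads were counted here, so the depth, intervals of counts and detection limits are unknown. Python 3.11.15, pandas 2.3.3, numpy 2.4.6 and matplotlib 3.10.9 were used.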

Additional observations from a re-analysis of the deposited data

How the results depend on the processing

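Adjusted p under 0.05, no trend, a minimum average of 5 FPKM, a pseudocount of 0.01 or 1 and the replicate block left the member calls at 8 to 9 lower and 1 higher. Over all genes these settings gave 1704 to 2207 lower and 1220 to 2040 higher calls. The replicate block called 9 lower and 1 higher and changed no member's call. With no filter, 4 were called lower (POLR2H, POLR2I, POLR2J and POLR3K) and 1 higher. Over the 26435 genes tested in that setting, 1419 were called lower and 1581 higher. The minimum average of 5 FPKM gave 1704 lower and 1220 higher calls over the 9593 genes it left.

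Rescaled to TPM, 2 members were called lower and 7 higher, 447 and 4380 over all genes, and the members' median was 0.28. POLR1E (0.24), CD3EAP (0.38), POLR1C (0.074), POLR2K (0.12), POLR2C (0.57), POLR2D (0.50), POLR3D (0.40), POLR3E (0.35), POLR3F (0.36), POLR3G (0.32) and UBTF (0.12) changed sign. Centred on the median of all genes, the members' median was -0.54 against -0.23 over all genes, a distance of -0.31, and POLR2A (-0.031) and POLR3C (-0.044) changed sign. In that setting 10 members were called lower, ZNRD1 now among them, and 1 higher, with 2601 and 1452 over all genes.

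Corrected for length and GC content, 1 member was called lower and 0 higher, with 874 and 882 over all genes and a median of -0.32. At an unadjusted limma p under 0.05 were 20 members, against 8051 of the 13112 genes. With the replicate block added, 2 were called lower and 0 higher, with 889 and 904 over all genes and the same median. Here 20 members were at an unadjusted limma p under 0.05, against 7884 of the 13112 genes. POLR1B (-0.30), POLR2A (-0.059), POLR2C (0.33) and POLR3C (-0.27) changed sign in both fits.

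Leaving out each library in turn, with the lone library assumed to vary like the others, gave 0 to 10 members lower and 0 to 1 higher, 0 to 2633 and 0 to 2136 over all genes, and a median of -0.52 to -0.30. No member changed sign. The 0 counts came from leaving out knockout replicate 1 or 2. The causes were not tested. With 2 libraries per group and an unknown depth, no outlying library could be tested for.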
